A study of Mus musculus with 6 samples.

Results

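The 44 genes described here encode the non-collagen part of the extracellular matrix, the enzymes that crosslink and process it, and 2 markers of fibroblasts. They were taken by symbol from the 54532 genes of the deposited table, through the mouse annotation GENCODE M21 (build GRCm38). The rule itself uses no measured value, but the genes were chosen with earlier results of these data known. By role they comprise 7 small leucine-rich proteoglycans, 4 large proteoglycans and basement membrane proteins, 14 elastic fibre genes, 12 glycoproteins and matricellular proteins, 5 processing and crosslinking genes, and the fibroblast markers Pdgfra and Tcf21. Of the 44 genes, 42 reached the mean of 0.5 FPKM (a level that divides the fragments of a gene by its exon length and by the depth of the sample) needed for testing, and Comp and Cilp did not.

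The extracellular matrix of the heart is laid down mainly by fibroblasts, and collagen fibrils give it strength. Small leucine-rich proteoglycans coat those fibrils and set their spacing, elastic fibres made of elastin on a fibrillin scaffold give recoil, and lysyl oxidases join chains of collagen and of elastin to each other. Matricellular proteins such as tenascin C and the thrombospondins are secreted into the matrix but act mostly as signals to cells, and many of them are known for their rise during cardiac remodelling.

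RNA-seq profiled primary heart muscle cells (cardiomyocytes) of newborn mice in which an engineered Rit1 locus lets Cre recombinase switch on the M90I variant of the GTPase RIT1. On day 3 the cultures received an adenovirus carrying GFP (AdGFP, labelled Rit1 +/+) or GFP together with Cre (AdCre, labelled Rit1 M90I/+), with 3 samples per group numbered 1 to 3 in both. Strain and sex were not given in the sources used here. By the methods of the study both groups share the engineered locus, virus and GFP, and no sample combined AdCre with an unmodified locus, so the effects of the variant and of Cre cannot be told apart. The level of Rit1 averaged 8.55 ± 0.77 FPKM under AdGFP and 9.19 ± 0.35 FPKM under AdCre (SD, n = 3), a total that does not separate the alleles.

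The depth, worked back from FPKM and exon length, was 25.28 to 32.43 M reads per sample. The cultures, labelled as cardiomyocytes, held RNA of several heart cell types: no marker of cardiomyocytes or of fibroblasts was at 0. The summed FPKM of 8 cardiomyocyte markers (among them Tnnt2, Myh6 and Pln) was between 1731 and 2518 in AdGFP and between 940.1 and 1653 in AdCre, with all 8 lower. That of 8 fibroblast markers, which include Pdgfra and Tcf21, was between 2473 and 4461 in AdGFP and between 2232 and 3186 in AdCre, with 6 of 8 lower. Endothelial markers summed to between 81.8 and 122.0 in AdGFP and between 120.1 and 171 in AdCre (6 of 6 higher), and macrophage markers to between 17.8 and 80.5 and between 33.8 and 102.5 (6 of 6 higher). Mural markers summed to 122.1 to 130.5 and 116.6 to 140.8 (3 of 6 higher), and epicardial markers to 110.2 to 215 and 103.0 to 130.3 (5 of 6 lower). The groups overlapped for these sums and also for the fibroblast, endothelial and macrophage sums. Red blood cell markers stayed at or below 2.18 with Hbb-bt and Hba-a2 at 0. In such bulk RNA, fewer cells of a type and less RNA per cell cannot be told apart, and the part of cell makeup in the differences below was not tested.

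**Figure D1:**
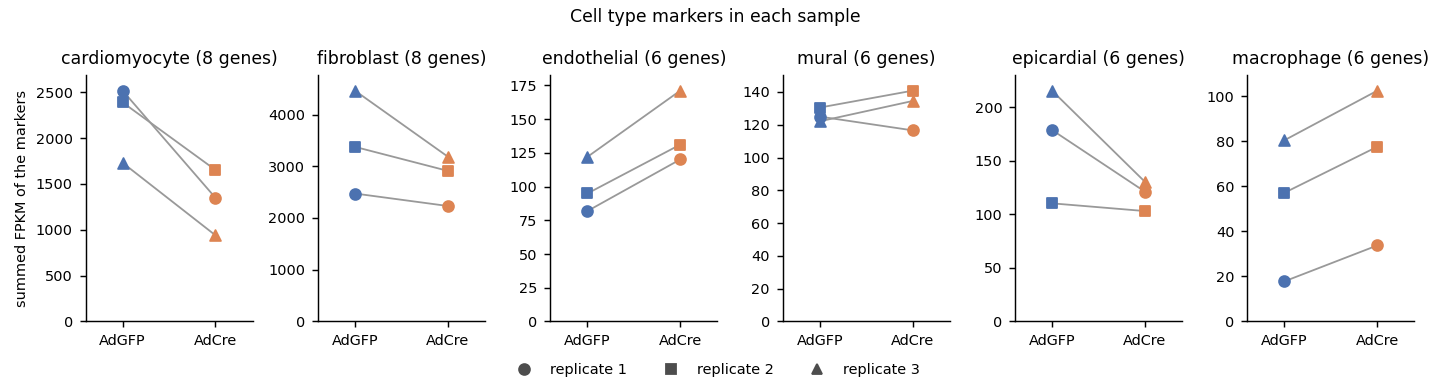
Summed FPKM of the markers of each cell type (vertical axes, from 0) in the AdGFP and AdCre samples (horizontal axis). Each point is a sample, symbols give the replicate number and lines join samples with the same number. The cardiomyocyte sums do not overlap between groups, and the fibroblast sums are lower in AdCre within each pair of numbers.

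The matrix genes were abundant. Together they made up between 1.25% and 2.59% of all FPKM in a sample, and the 5 most abundant held between 60.6% and 64.5% of that. Sparc, which encodes a collagen-binding matricellular protein, had the highest level, at 1162, 1328 and 1832 FPKM in AdGFP 1, 2 and 3 and 1164, 1266 and 1449 FPKM in AdCre 1, 2 and 3. Thbs1, whose product can release TGF-beta from its latent complex, was at 631 to 944 FPKM in AdGFP and 729 to 849 FPKM in AdCre, and Fn1, encoding fibronectin, was at 293 to 898 and 349 to 741 FPKM. Next in mean level came Bgn, Fbln2, Lox, Postn and Loxl2, none of them under 155.5 FPKM in any sample. At the other end, Cilp did not exceed 0.105 FPKM (2 to 11 reads), Comp was between 0.191 and 0.339 FPKM (14 to 29 reads), and Tnxb and Mfap5 lay between 1.11 and 2.09 FPKM.

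**Figure D2:**
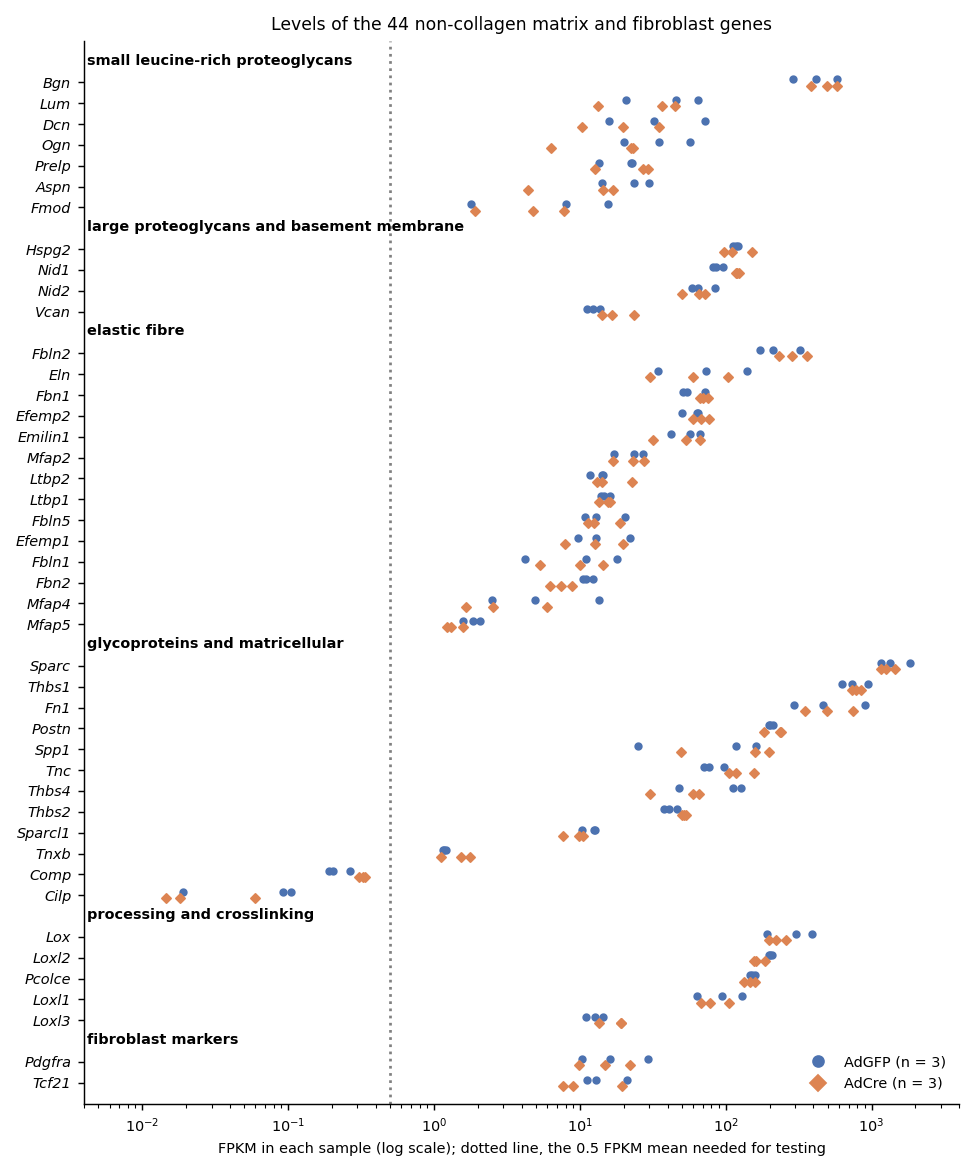
FPKM (horizontal log axis) of the 44 genes in each of the 3 AdGFP samples (circles) and the 3 AdCre samples (diamonds), grouped by role and ordered by mean level. Sparc has the highest level, groups overlap for most genes, and Comp and Cilp lie under the dotted line at 0.5 FPKM.

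The levels also differed between replicate numbers. In both groups, 17 of the 42 tested genes (40.5%) were lowest in sample 1 and highest in sample 3, against 11.8% of all genes tested. The median gene of the 42 was 0.66 higher on the log2 scale in AdGFP 3 than in AdGFP 1, and 0.55 higher in AdCre 3 than in AdCre 1, where the medians over all genes were -0.01 and -0.03. For the small leucine-rich proteoglycans these medians were 1.51 and 1.74. The summed fibroblast markers were also lowest in the samples numbered 1 and highest in those numbered 3. Whether a number marks a shared isolation of hearts is not given in the labels, and the pairing used below rests on the values.

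To ask which of these genes differed between AdCre and AdGFP, all 13794 genes with enough signal were fitted in limma on log2(FPKM + 0.1), without pairing and then with the replicate number as a block. Without pairing, 0 of the 42 genes passed an adjusted p of 0.05, against 0.00725% of all genes, and 6 had an unadjusted p under 0.05 (Vcan, Nid1, Fbn2, Tnc, Thbs2 and Loxl3; 14.3%, against 10.2% of all genes). Voom on the reads worked back also called 0, with 5 at an unadjusted p under 0.05. With the replicate block, 8 of 42 (19.0%) passed, against 6.15% of all genes. Nid1 and Tnc rose (2.64% of all genes were called higher), and Dcn, Lum, Ogn, Aspn, Mfap4 and Thbs4 fell (3.51% were called lower). The block narrowed the median standard error of the 42 from 0.25 to 0.11, and that of all genes from 0.19 to 0.12. The calls depended on the pairs: leaving out the samples numbered 3 left 0 of the 42 and 1 of all 13794 genes, leaving out those numbered 2 left Aspn and Ogn alone (149 of all genes), and without those numbered 1 there were 9, of which 6 were among the 8. Without the trend or without the filter on low levels the block called 0, with 16 of the 42 genes and 19 of the 44 then fitted at an unadjusted p under 0.05 (22.6% and 14.8% of all genes tested there). In the blocked fit as given 21 of the 42 were at an unadjusted p under 0.05, against 24.7% of all genes.

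As a whole the 42 genes did not lean far to either side. Of them, 18 were higher and 24 lower in AdCre, and their median change was -0.05 on the log2 scale, against -0.00 for all genes. The groups did not overlap for 6 of the 42 (14.3%, against 15.4% of all genes): Vcan, Nid1, Tnc and Thbs2 were higher and Fbn2 and Loxl2 lower in every AdCre sample. All 3 pairs differed in the same direction for 24 (57.1%, against 48.4% of all genes), 10 of them upward and 14 downward. For each of the 6 genes without overlap an exact permutation test, two-sided, gave 0.1, the smallest p that 3 samples in each group allow. Groups that do not overlap always give this value, so it adds nothing to the lack of overlap.

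**Figure D3:**
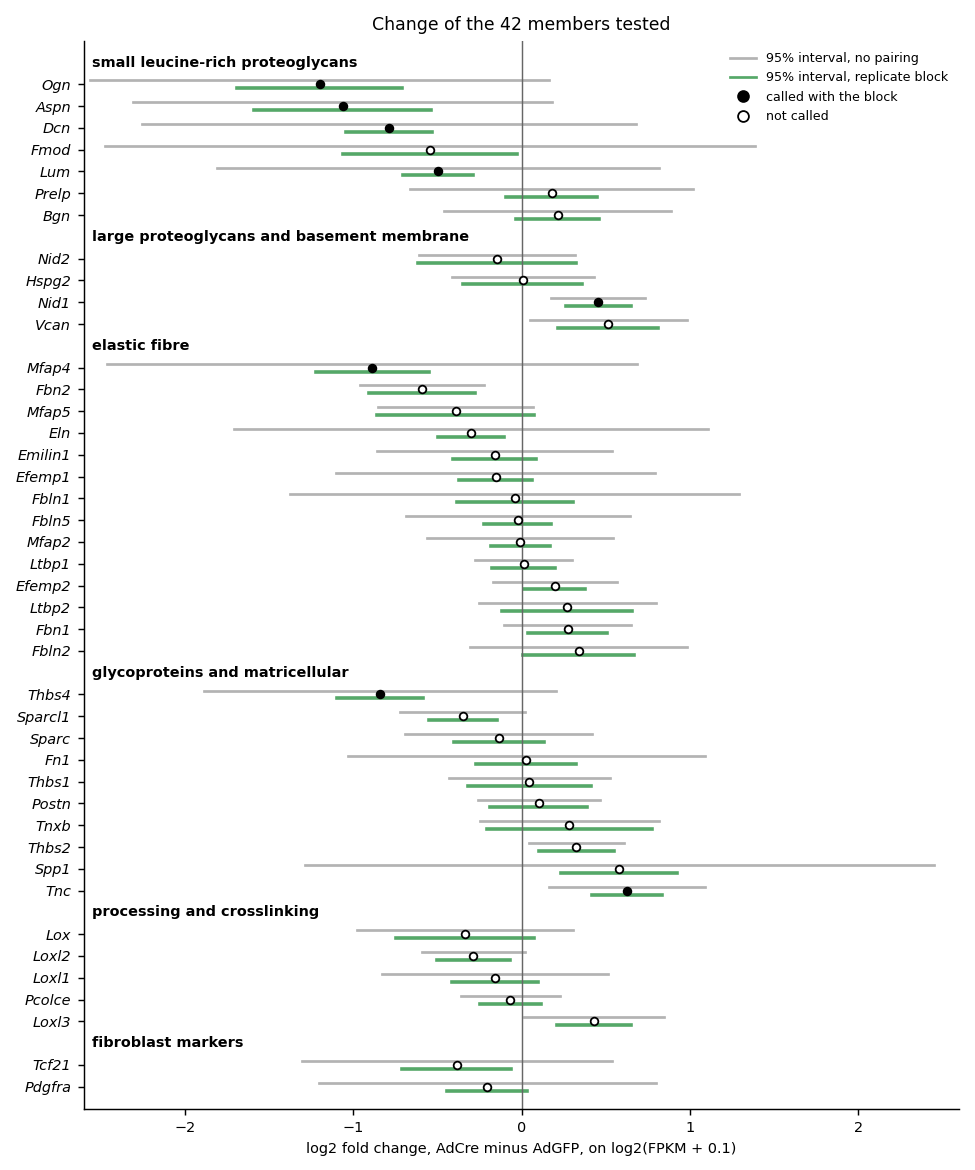
Log2 fold change (horizontal axis, AdCre minus AdGFP, on log2(FPKM + 0.1)) of the 42 tested genes by role, with 95% intervals without pairing (grey) and with the replicate block (green). Filled points passed the test with the block: 6 lie left of 0 and 2, Nid1 and Tnc, right of it.

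Among the small leucine-rich proteoglycans, 4 of 7 fell with the block (57.1%, against 3.51% of all genes) and none rose, and the 7 had a median change of -0.54 on the log2 scale. Ogn encodes osteoglycin, a collagen-associated member of the family (ENSMUSG00000021390, chr13:49608046-49624501, + strand). It was at 20.1, 35.1 and 57.4 FPKM in AdGFP 1, 2 and 3 and at 6.33, 23.3 and 22.4 FPKM in AdCre 1, 2 and 3. Every AdCre sample was below its same-numbered AdGFP sample, but the groups overlapped. The log2 fold change was -1.20 (SE 0.20 and adjusted p = 0.0327 with the block, SE 0.58 and adjusted p = 0.55 without). Aspn encodes asporin, which binds collagen and TGF-beta (ENSMUSG00000021388, chr13:49544443-49567565, + strand). Its values were 14.2, 23.4 and 30.1 FPKM in AdGFP and 4.40, 16.8 and 14.5 FPKM in AdCre, so that the overlap came from AdGFP 1 and from AdCre 2 and 3. The change was -1.06 (SE 0.21, adjusted p = 0.0484 with the block, 0.566 without), and median centring took the blocked call away. For both genes the gap was widest in pair 1 and narrowest in pair 2. Without pairing, leaving out AdCre 1 brought the changes of Ogn and Aspn to -0.59 and -0.46.

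Dcn encodes decorin, a binder of collagen fibrils and of TGF-beta (ENSMUSG00000019929, chr10:97479609-97518143, + strand). It was at 15.9, 32.6 and 72.7 FPKM in AdGFP and 10.4, 19.8 and 35.2 FPKM in AdCre. Within AdGFP the samples spanned 4.58-fold, and yet each pair differed in the same direction, by -0.60, -0.72 and -1.04 on the log2 scale. The log2 fold change was -0.79 (SE 0.10, adjusted p = 0.023 with the block; SE 0.62, adjusted p = 0.755 without), and without pairing it was -1.33 when AdGFP 1 and -0.23 when AdGFP 3 was left out. Lum encodes lumican, which regulates the width and spacing of fibrils (ENSMUSG00000036446, chr10:97565128-97572703, + strand). It was at 20.8, 46.0 and 64.8 FPKM in AdGFP and 13.4, 36.4 and 45.1 FPKM in AdCre, again with overlap and with the AdCre sample lower in each pair. Its change was -0.49 (SE 0.08, adjusted p = 0.0347 with the block, 0.843 without), and without pairing it was -0.96 without AdGFP 1 and turned to 0.03 when AdCre 1 was left out.

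The remaining members of the family did not pass. Bgn, encoding biglycan, was by far the most abundant of them at 291, 418 and 575 FPKM in AdGFP and 382, 494 and 581 FPKM in AdCre. Its groups overlapped, and its log2 fold change was 0.22 with a blocked 95% interval of -0.03 to 0.46 (adjusted p = 0.255). Fmod, encoding fibromodulin, was at 1.80, 8.00 and 15.6 FPKM in AdGFP and 1.92, 4.77 and 7.83 FPKM in AdCre, with a log2 fold change of -0.54 (blocked adjusted p = 0.184), and pair 1 differed from the other two in direction. Prelp, whose product anchors basement membranes to connective tissue, was at 13.6 to 22.7 FPKM in AdGFP and 12.7 to 29.4 FPKM in AdCre (adjusted p = 0.374 with the block). Beside these, the summed fibroblast markers differed by -0.15, -0.21 and -0.49 on the log2 scale in pairs 1, 2 and 3, and the collagen genes Col1a1, Col1a2 and Col3a1 made up between 91.7% and 95.4% of that sum. The part of fibroblast content in the proteoglycan values was not tested.

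**Figure D4:**
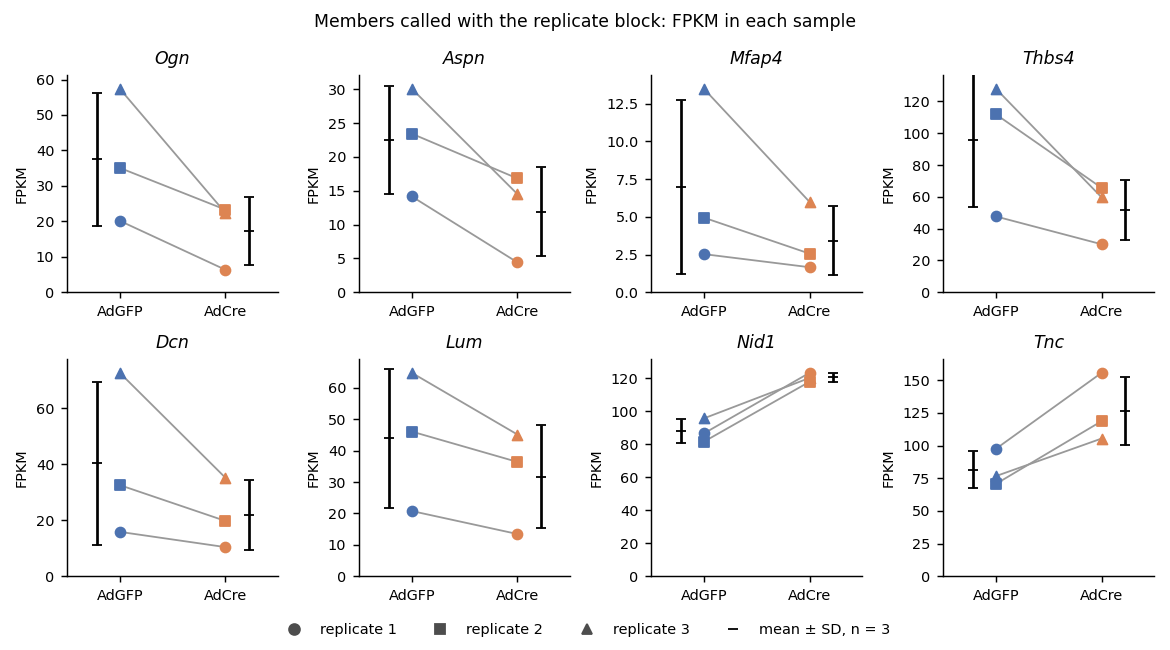
FPKM (vertical axes, from 0) of the 8 genes that passed with the replicate block, in AdGFP and AdCre. Each point is a sample, symbols give the replicate number, lines join same-numbered samples, and the bars beside them are the mean ± SD of 3 samples. All lines fall for Ogn, Aspn, Mfap4, Thbs4, Dcn and Lum and all rise for Nid1 and Tnc, while the groups overlap for the 6 genes that fell.

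The 4 proteoglycan genes that fell lie as 2 neighbouring pairs. Dcn and Lum are 47.0 kb apart on chromosome 10 on the same strand, and Aspn and Ogn are 40.5 kb apart on chromosome 13, also on the same strand. Omd, which lies between Aspn and Ogn, was under the level needed for testing, and Ecm2, 11.7 kb from Aspn, had a log2 fold change of -0.21 (adjusted p = 0.608 with the block). The family's other pair of neighbours, Prelp and Fmod, 115.8 kb apart on chromosome 1, were not called. Chromosome 13 holds 5 of the 44 genes. Of these, Ogn, Aspn and Thbs4 fell and Nid1 rose with the block, where 6.89% of all tested genes of that chromosome were called. Chromosome 5 holds 6 of the 44 genes and 0 of them passed, where 6.56% of its tested genes did.

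The promoters of genes that passed with the block are printed here, so that the neighbours Aspn and Ogn can be read beside other genes that passed, for the 5 of the 8 that the RefSeq table (build GRCm38.p6) holds. The table held 29 of the 44 genes. The stretches end at the base before the start of the gene, or, for Ogn, 31 bases further from the annotated start given above, and are 250 bases long, or 199 for Nid1, where 51 bases that belong to an annotated exon were left off. They are Aspn at chr13:49544193-49544442 (+ strand), Ogn at chr13:49607765-49608014 (+ strand), Thbs4 at chr13:92794819-92795068 (- strand), Nid1 at chr13:13437352-13437550 (+ strand) and Tnc at chr4:64047016-64047265 (- strand). Capitals mark matches on either strand to motifs that were chosen after the values were seen and may overlap one another. These were the TATA box that positions transcription (TATAAA) and the GC box bound by Sp family factors (GGGCGG). Sites for factors downstream of growth signals were also searched, namely those of the AP-1 complex of Fos and Jun proteins (TGANTCA) and of the ETS family of transcription factors (CCGGAAG). The last was the site of the TEAD factors, which act with the co-activator Yap (CATTCC).
Aspn: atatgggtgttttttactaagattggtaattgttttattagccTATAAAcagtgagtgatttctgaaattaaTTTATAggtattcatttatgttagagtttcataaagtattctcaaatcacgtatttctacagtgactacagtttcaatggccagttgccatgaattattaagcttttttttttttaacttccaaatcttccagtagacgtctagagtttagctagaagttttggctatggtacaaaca
Ogn: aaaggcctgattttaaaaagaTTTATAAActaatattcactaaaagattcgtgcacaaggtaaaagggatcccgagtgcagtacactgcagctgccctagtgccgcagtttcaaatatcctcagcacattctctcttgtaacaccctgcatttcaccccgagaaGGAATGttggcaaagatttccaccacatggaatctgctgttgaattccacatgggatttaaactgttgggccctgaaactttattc
Thbs4: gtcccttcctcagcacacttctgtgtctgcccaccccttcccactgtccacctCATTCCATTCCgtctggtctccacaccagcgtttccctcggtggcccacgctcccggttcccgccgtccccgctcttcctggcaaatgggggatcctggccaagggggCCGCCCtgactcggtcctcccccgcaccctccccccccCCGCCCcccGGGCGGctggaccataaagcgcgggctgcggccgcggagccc
Nid1: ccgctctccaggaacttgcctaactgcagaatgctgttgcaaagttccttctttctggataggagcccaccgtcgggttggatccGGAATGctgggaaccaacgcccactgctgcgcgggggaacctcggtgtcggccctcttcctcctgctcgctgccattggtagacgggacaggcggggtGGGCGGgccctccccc
Tnc: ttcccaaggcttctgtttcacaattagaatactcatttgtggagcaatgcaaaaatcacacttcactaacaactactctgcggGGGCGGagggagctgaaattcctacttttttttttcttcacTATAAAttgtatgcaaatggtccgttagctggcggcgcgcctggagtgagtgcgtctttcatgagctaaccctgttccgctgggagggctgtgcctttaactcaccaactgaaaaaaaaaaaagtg
The neighbours Aspn and Ogn had a G and C content of 30% and 42%, Tnc was 44.8%, Nid1 63.8% and Thbs4 70.8%, against a median of 55.6% over the 29 promoters and 52.0% over all 27025 in the table. The TATA box letters stood in Aspn, Ogn and Tnc, the GC box letters in Thbs4, Nid1 and Tnc, and the TEAD letters in Ogn, Thbs4 and Nid1. Neither the AP-1 nor the ETS letters were in these windows. Over the 29 promoters, 5, 13, 2, 1 and 4 held the TATA box, GC box, AP-1, ETS and TEAD letters (17.2%, 44.8%, 6.90%, 3.45% and 13.8%), against 13%, 33%, 6.85%, 7.07% and 12.6% of all promoters. A match of letters is a description and not a binding site.

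Of the large proteoglycans and basement membrane genes, 1 of 4 rose with the block (25.0%, against 2.64% of all genes) and none fell, and their median log2 fold change was 0.23. Nid1 encodes nidogen, which links laminin to type IV collagen in basement membranes (ENSMUSG00000005397, chr13:13437551-13512269, + strand). It was at 86.5, 81.5 and 95.6 FPKM in AdGFP and 123, 118 and 120.1 FPKM in AdCre. The groups did not overlap, and the 3 AdCre values lay within 1.05-fold of each other. Its log2 fold change was 0.46 (SE 0.08, adjusted p = 0.0351 with the block; SE 0.12, adjusted p = 0.30 without). Nid2, its paralog, was at 59.0 to 84.7 FPKM in AdGFP and 50.1 to 72.2 FPKM in AdCre, higher in AdCre in pairs 1 and 2 and lower in pair 3. The difference between the changes of the nidogens was not tested.

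Vcan, encoding the hyaluronan-binding proteoglycan versican, was at 12.3, 11.3 and 13.7 FPKM in AdGFP and 14.3, 16.6 and 23.5 FPKM in AdCre. The groups did not overlap, with the closest samples being AdGFP 3 and AdCre 1. The log2 fold change was 0.51 (adjusted p = 0.0671 with the block and 0.448 without), and it passed under 4 of the 13 alternatives of the blocked fit. Leaving out AdCre 3 brought the unpaired change to 0.31. Hapln1, whose product ties versican to hyaluronan and whose gene lies 43.7 kb from Vcan, had a log2 fold change of 0.83 with a blocked adjusted p of 0.161. Hspg2, encoding perlecan, was the most abundant gene of the group at 121.5, 113 and 117 FPKM in AdGFP and 98.2, 151 and 110.3 FPKM in AdCre. The AdCre samples lay on both sides of the AdGFP samples (log2 fold change 0.01, blocked 95% interval -0.35 to 0.36). Beside these basement membrane genes, the endothelial markers were higher in AdCre in each pair, by 0.55, 0.47 and 0.49 on the log2 scale of their sum.

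Of the 14 elastic fibre genes, 1 fell with the block (7.14%, against 3.51% of all genes called lower and 6.15% called in either direction) and none rose, and their median change was -0.03 on the log2 scale. Mfap4 encodes a microfibril-associated protein that binds elastin and collagen (ENSMUSG00000042436, chr11:61485431-61488900, + strand). It was at 2.53, 4.94 and 13.5 FPKM in AdGFP and 1.66, 2.56 and 5.99 FPKM in AdCre. The groups overlapped through the wide span of AdGFP (5.34-fold), while each pair was lower in AdCre, by 0.58, 0.92 and 1.16 on the log2 scale. The log2 fold change was -0.89 (SE 0.14, adjusted p = 0.0289 with the block; SE 0.67, adjusted p = 0.735 without), and without pairing it was -1.44 when AdGFP 1 and -0.25 when AdGFP 3 was left out.

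Fbn2, encoding the fibrillin of early development, had the smallest p of the elastic fibre genes without pairing and lies on chromosome 18. It was at 10.97, 10.5 and 12.3 FPKM in AdGFP and 6.24, 8.87 and 7.40 FPKM in AdCre, so the groups did not overlap. Its log2 fold change was -0.59, with an adjusted p of 0.31 without pairing and 0.0562 with the block, and only the higher minimum of 1 FPKM brought it past the threshold. Fbn1, encoding the main fibrillin of microfibrils, was at 54.0, 50.8 and 72.2 FPKM in AdGFP and 66.9, 69.6 and 75.3 FPKM in AdCre (log2 fold change 0.27, blocked adjusted p = 0.154). An antisense gene overlaps 20.1% of the exon sequence of Fbn1, and whether reads were counted by strand was not given. Eln, encoding elastin, was at 34.4, 72.8 and 139.5 FPKM in AdGFP and 30.3, 59.6 and 103.8 FPKM in AdCre. It was lower in AdCre in all 3 pairs, and its log2 fold change was -0.30 (blocked adjusted p = 0.0862; 0.0492 to 0.282 over the alternatives, of which voom alone called it).

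Fbln2, encoding a fibulin of elastic fibres and basement membranes, was the most abundant elastic fibre gene. It was at 173, 213 and 323 FPKM in AdGFP and 285, 232 and 362 FPKM in AdCre, with a log2 fold change of 0.34 (blocked 95% interval 0.01 to 0.67, adjusted p = 0.193) that was 0.14 without AdGFP 1 and 0.59 without AdGFP 3 when not paired. Mfap5, a microfibril gene at low level, was at 1.58, 2.09 and 1.85 FPKM in AdGFP and 1.58, 1.24 and 1.31 FPKM in AdCre (log2 fold change -0.39, blocked adjusted p = 0.269). Among the elastic fibre genes the narrowest blocked intervals around 0 belonged to Mfap2 (-0.18 to 0.17) and Ltbp1 (-0.18 to 0.20). Fbln1 and Fbln5 had intervals of -0.39 to 0.31 and -0.22 to 0.18. Blocked intervals for Efemp1 (-0.37 to 0.06), Emilin1 (-0.41 to 0.09), Ltbp2 (-0.12 to 0.66) and Efemp2 (0.02 to 0.38, adjusted p = 0.174) were wider or off centre, with none of the 4 called.

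Among the 10 tested glycoproteins and matricellular genes, Tnc rose and Thbs4 fell with the block (20.0%, against 6.15% of all genes). Tnc encodes tenascin C, a large glycoprotein of developing and injured tissue (ENSMUSG00000028364, chr4:63959785-64047015, - strand). It was at 97.6, 70.7 and 76.7 FPKM in AdGFP and 155.7, 119 and 105.4 FPKM in AdCre. Every AdCre sample was above every AdGFP sample, with 97.6 FPKM in AdGFP 1 and 105.4 FPKM in AdCre 3 the closest. The log2 fold change was 0.63 (SE 0.09, adjusted p = 0.0239 with the block; SE 0.20, adjusted p = 0.354 without). Tnc was highest in the samples numbered 1 in both groups.

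The thrombospondins bind calcium and matrix proteins, and their 3 tested genes differed from one another in their values. Thbs4 (ENSMUSG00000021702, chr13:92751590-92794818, - strand) was at 47.7, 111.9 and 128.0 FPKM in AdGFP and 30.2, 65.7 and 59.7 FPKM in AdCre. AdGFP 1 lay within the AdCre range, and each pair was lower in AdCre, by 0.66, 0.77 and 1.10 on the log2 scale. Its log2 fold change was -0.84 (SE 0.10, adjusted p = 0.0194 with the block; SE 0.44, adjusted p = 0.597 without), the smallest blocked p of the 42 genes. Without pairing it was -1.28 when AdGFP 1 and -0.49 when AdCre 1 was left out. Thbs2 was at 37.6, 40.7 and 46.2 FPKM in AdGFP and 51.5, 53.8 and 50.3 FPKM in AdCre. Its groups did not overlap, but its change of 0.33 did not pass (adjusted p = 0.0971 with the block, 0.429 without). Thbs1 was higher in AdCre in pairs 1 and 2 and lower in pair 3, with a blocked interval of -0.32 to 0.41. Comp, a further thrombospondin known from cartilage, was at 0.205, 0.266 and 0.191 FPKM in AdGFP and 0.305, 0.339 and 0.328 FPKM in AdCre. These did not overlap, but at 14 to 29 reads a sample the gene was under the level needed for testing.

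The rest of the group did not pass. Spp1, encoding osteopontin, a phosphoprotein also made by macrophages, was at 24.9, 117 and 160.5 FPKM in AdGFP and 49.6, 158.5 and 199 FPKM in AdCre. Each AdCre sample was higher than its partner, and the log2 fold change was 0.58 (blocked adjusted p = 0.0704), while 11.6% of the transcript sequence of Spp1 is shared with the gene model Gm42793. The macrophage markers also summed higher in AdCre in each pair, by 0.92, 0.44 and 0.35 on the log2 scale, beside 0.99, 0.44 and 0.31 for Spp1. The part of macrophages in the Spp1 values was not tested. Sparcl1, a relative of Sparc, was at 12.5, 12.7 and 10.4 FPKM in AdGFP and 9.87, 10.5 and 7.73 FPKM in AdCre, with a log2 fold change of -0.35 (blocked adjusted p = 0.0666).

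Sparc itself had a log2 fold change of -0.14 (blocked 95% interval -0.40 to 0.13), which quantile normalization turned to 0.10. Fn1 was higher in AdCre in pairs 1 and 2 and lower in pair 3 (blocked interval -0.27 to 0.33). Postn, encoding periostin, a product of activated fibroblasts, was at 198 to 213 FPKM in AdGFP and 183 to 240 FPKM in AdCre (interval -0.19 to 0.39). Tnxb, encoding tenascin X, was at 1.15 to 1.21 FPKM in AdGFP and 1.11 to 1.78 FPKM in AdCre, and shares 6.41% of its sequence with the pseudogene Tnxa. Cilp, the other untested gene, is listed at 0.0191 to 0.105 FPKM in AdGFP and 0.0147 to 0.0594 FPKM in AdCre.

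None of the 5 processing and crosslinking genes passed in either fit, with 2 at a blocked unadjusted p under 0.05, where 24.7% of all genes were. Lox, encoding lysyl oxidase and also on chromosome 18, was the most abundant at 192, 305 and 392 FPKM in AdGFP and 198, 258 and 221 FPKM in AdCre. Its pairs differed by 0.05, -0.24 and -0.82 on the log2 scale, and the log2 fold change was -0.34 (blocked 95% interval -0.75 to 0.07, adjusted p = 0.279). Without pairing it was -0.62 when AdGFP 1 and -0.11 when AdGFP 3 was left out. Loxl2 was at 209, 202 and 199.7 FPKM in AdGFP and 155.5, 186 and 160.6 FPKM in AdCre, without overlap, and had a log2 fold change of -0.29 (blocked adjusted p = 0.121). Its values are uncertain, since 45.0% of its transcript sequence recurs in other genes, mostly in the gene model Gm21451.

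Loxl3 had the smallest p of the crosslinking genes without pairing. It was at 11.1, 14.3 and 12.8 FPKM in AdGFP and 13.6, 19.1 and 19.2 FPKM in AdCre, where AdCre 1 lay below AdGFP 2. The log2 fold change was 0.43 (adjusted p = 0.0514 with the block and 0.481 without), and it passed under 5 of the 13 alternatives of the blocked fit. The antisense gene Htra2 overlaps 11.6% of its exon sequence. Loxl1, which acts on elastin, was at 63.3 to 129.5 FPKM in AdGFP and 68.1 to 104.7 FPKM in AdCre, and Pcolce, whose product speeds the trimming of procollagen, at 147.7 to 159 and 133.9 to 158 FPKM, with blocked intervals of -0.41 to 0.10 and -0.25 to 0.11.

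Pdgfra and Tcf21 did not pass in either fit. Pdgfra, the receptor for platelet-derived growth factor that marks cardiac fibroblasts, was at 10.4, 16.2 and 29.5 FPKM in AdGFP and 9.88, 15.0 and 22.0 FPKM in AdCre. The groups overlapped across most of their range, and the log2 fold change was -0.20 (blocked 95% interval -0.44 to 0.03, adjusted p = 0.26). Tcf21, a transcription factor of the cells that give rise to cardiac fibroblasts, was at 11.2, 12.9 and 21.2 FPKM in AdGFP and 9.03, 7.73 and 19.6 FPKM in AdCre. Its log2 fold change was -0.39 (blocked interval -0.71 to -0.06, adjusted p = 0.148), and without pairing it was -0.79 when AdCre 3 and -0.11 when AdGFP 3 was left out. Both were lower in AdCre in all 3 pairs, as were Col1a1, Col1a2, Col3a1 and Dpt of the fibroblast marker list, while Ddr2 and Thy1 were higher in all 3. Of those 8 markers, Col3a1 (lower, adjusted p = 0.0484) and Thy1 (higher, adjusted p = 0.0388) passed with the block (25.0%, against 6.15% of all genes). Without pairing, the adjusted p of Col3a1 and Thy1 was 0.762 and 0.329.

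**Figure D5:**
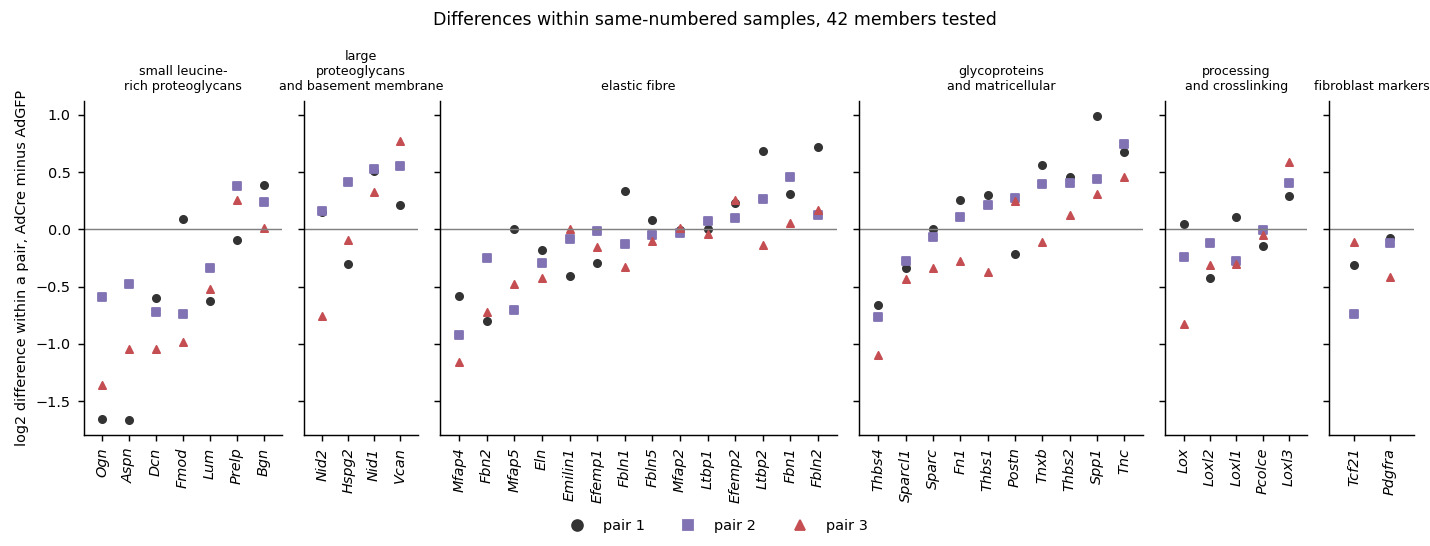
Log2 difference in log2(FPKM + 0.1) between AdCre and AdGFP (vertical axis) within each pair of same-numbered samples, for the 42 tested genes grouped by role and ordered by mean change (horizontal axis). Points are pairs 1 to 3, and all 3 lie on the same side of 0 for 24 genes, among them Ogn, Aspn, Dcn, Lum, Mfap4, Thbs4, Nid1 and Tnc.

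Of 24 tested genes in a wider list of fibroblast genes, 2 rose and 2 fell with the block (16.7%, against 6.15% of all genes, median log2 fold change 0.01), and 0 of 24 passed without pairing, with 4 at an unadjusted p under 0.05. Gas1, whose product holds back growth and binds Hedgehog ligands, fell from 19.3, 28.5 and 40.6 FPKM in AdGFP to 10.2, 16.9 and 25.9 FPKM in AdCre (log2 fold change -0.77, blocked adjusted p = 0.0152). Dpep1, a membrane dipeptidase, fell from 5.19, 6.11 and 8.91 FPKM to 3.64, 4.74 and 5.59 FPKM (-0.51, adjusted p = 0.0477). Ly6a, which encodes the progenitor marker Sca-1 and is also expressed in endothelium, rose from 2.05, 7.53 and 8.89 FPKM to 8.68, 18.4 and 17.9 FPKM (1.44, adjusted p = 0.0244), and Thy1 rose from 84.4, 79.8 and 85.6 FPKM to 117.7, 105.1 and 107.7 FPKM (0.40, adjusted p = 0.0388). The groups overlapped for Gas1, Dpep1 and Ly6a and not for Thy1. Without pairing the adjusted p of Gas1, Dpep1, Ly6a and Thy1 was 0.574, 0.546, 0.467 and 0.329. Of the 13 alternatives of the blocked fit, Gas1 passed under 9, Dpep1 under 4, Ly6a under 9 and Thy1 under 8. Leaving out AdGFP 1 moved Ly6a to 0.79, leaving out AdGFP 3 moved Dpep1 to -0.29, and leaving out AdCre 1 moved Gas1 to -0.43. Vim, the most abundant of the list, was at 580 to 864 FPKM in AdGFP and 611 to 739 FPKM in AdCre and was not called.

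A further list of non-collagen matrix genes had 32 tested, of which 3 rose and 3 fell with the block (18.8%, against 6.15% of all genes, median -0.00), and 0 of 32 passed without pairing, with 4 at an unadjusted p under 0.05. Spon2 and Spon1, of the spondin family, fell by 0.89 and 0.77 on the log2 scale (adjusted p = 0.0145 and 0.028), and Matn2, encoding a matrilin, fell by 0.62 (adjusted p = 0.0268). Spon2 was at 16.6, 30.1 and 74.1 FPKM in AdGFP and 10.2, 15.9 and 35.8 FPKM in AdCre, lower in AdCre in each pair with overlap of the groups. Has2, the main hyaluronan synthase of the heart, rose by 0.62 (adjusted p = 0.0415) and Sdc1, a cell-surface heparan sulfate proteoglycan, by 0.45 (adjusted p = 0.0443). Has2 was at 2.12, 2.93 and 4.05 FPKM in AdGFP and 3.03, 4.33 and 7.28 FPKM in AdCre, with overlap, and Sdc1 at 23.2 to 29.9 and 34.2 to 42.3 FPKM, without. Without pairing the adjusted p of Spon2, Spon1, Matn2, Has2 and Sdc1 lay between 0.385 and 0.711, and leaving out AdGFP 3 moved Spon2 to -0.31 and Matn2 to -0.36, and leaving out AdCre 3 moved Has2 to 0.30. Ecm1 was the other gene that rose, and Igfbp7, the most abundant at 640 to 791 FPKM in AdGFP and 628 to 862 FPKM in AdCre, was not called.

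Among 27 other processing and crosslinking genes, Loxl4 alone passed, at 14.1, 7.66 and 7.69 FPKM in AdGFP and 19.8, 15.1 and 11.4 FPKM in AdCre (3.70%, against 6.15% of all genes, log2 fold change 0.67, blocked adjusted p = 0.0358 and unpaired adjusted p = 0.512). Serpinh1, the collagen chaperone and the most abundant of that list, was at 1075 to 1164 FPKM in AdGFP and 950.0 to 1086 FPKM in AdCre. Among 20 tested genes that respond to TGF-beta, 15 were higher and 5 lower in AdCre, with a median change of 0.12 on the log2 scale. Acta2, the smooth muscle actin of activated fibroblasts and the most abundant of that list, was at 665 to 1122 FPKM in AdGFP and 808 to 1046 FPKM in AdCre and was not called.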

How the data were processed

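The authors deposited 1 table of FPKM values for 6 samples, 1 column each. The submitters' processing notes name fastp, STAR 2.5, HTSeq 0.6.1 and mm10, and annotation and strand use are not given in the sources used here. Poly-T beads selected the RNA. Symbols came from GENCODE M21 (54495 of 54532 IDs matched). FPKM times exon length gave whole reads (tolerance 0.02) for 96.8% of genes above 0 and for 40 of the 44 genes described.

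Values were fitted as log2(FPKM + 0.1), which understates the change of low genes, in limma 3.58.1 (R 4.3.3) with eBayes and a trend. The 13794 genes averaging 0.5 FPKM or more were tested, with Benjamini-Hochberg adjustment, and passed at an adjusted p under 0.05. What the replicate numbers mark is not given. Deviations from the group means correlated at 0.568, 0.268 and 0.506 between same-numbered samples and at -0.497 to 0.036 otherwise. As deviations within a group sum to 0, positive values for same-numbered samples force the others down. Because every pair exceeded 0.1 the number was also fitted as a block, a choice made from these same values. Unpaired p-values measure the spread between these samples, labelled biological replicates. Those of the blocked fit measure the spread of the differences within same-numbered pairs.

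The genes and lists were chosen with earlier results of these data known. Full values were given for genes called in either fit and, per role, for the smallest unpaired p and the highest mean, and from other lists for up to 5 called genes and the most abundant. A called gene of the TGF-beta list is not reported here. Fold changes of Fmod, Vcan, Fbn1, Eln, Mfap5, Thbs2, Sparcl1, Spp1 and Loxl2 were added after their values were seen. Shared sequence was counted in 50-base words of transcripts. On simulated data (13794 genes, 200 changed 2-fold) the fit recovered 63.5% of changed genes without and 39.5% with the block, and 0% and 38.0% when pair effects (SD 0.3) were simulated. The simulated pair effects were identical in both groups and the noise was the spread left within pairs. The simulation therefore cannot show whether the block suits the real samples.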

Additional observations from a re-analysis of the deposited data

How the results depend on the processing

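Without pairing, 0 of the genes described passed under every alternative run: other pseudocounts (1 and 0.01), no filter, a minimum mean of 1 FPKM, TPM, median centring, quantile normalization, no trend, voom on reads worked back, reads-based scaling (chosen after seeing the data) and each sample left out. The replicate block gave 8. With the block, 0 passed without the filter (19 at an unadjusted p under 0.05) or without the trend (16), and 14 with voom, which added Eln, Fmod, Loxl3, Spp1, Thbs2 and Vcan. The other settings gave 7 to 10, and leaving out a pair gave 0 to 9. The cause was not tested.

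The median log2 fold change was 0.036 in TPM, where the median of all genes moved to 0.09, and -0.26 to 0.13 with single samples left out, and between 15 and 29 genes were then lower. Sparc turned to 0.10 under quantile normalization. Leaving out single samples turned the unpaired direction of 19 of the 42 genes (42.5% of all genes tested), 8 of them among the 26 whose fold changes are given in full: Lum (-0.96 to 0.034), Bgn (-0.035 to 0.46), Fmod (-1.40 to 0.12), Hspg2 (-0.17 to 0.14), Eln (-0.82 to 0.19), Sparc (-0.28 to 0.051), Spp1 (-0.24 to 1.19) and Pdgfra (-0.56 to 0.19). The other 11 were Prelp, Nid2, Fbln1, Fbln5, Efemp1, Mfap2, Emilin1, Ltbp1, Fn1, Thbs1 and Loxl1. Without turning, Fbn1 (0.17 to 0.43) and Sparcl1 (-0.44 to -0.22) also moved when single samples were left out. With the block, no direction of the 8 called genes turned in 104 values, but 33 lost the call, with adjusted p up to 0.18 (Aspn without pair 3). The reads of Fbn2, Efemp2, Ltbp1 and Lox did not come out whole, so these have no voom value. Depth limits Cilp and Comp.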
